A study of Homo sapiens with 6 samples.

Results

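The stretch of chromosome 7 from 40900000 to 41850000 (GRCh38) holds the far end of SUGCT, the whole of INHBA and the chromatin between and beyond them. Its members are the accessible sites of a deposited count table whose midpoint falls in that window, 86 of the 181135 sites in the table. The window was drawn because it holds a site in SUGCT with one of the largest gains after treatment, so its members were chosen by their gains over 0 h, at 6 h and at 72 h. Fold changes and calls against 0 h are therefore given below for the members as descriptions only, and nothing is read from them. Accessibility was measured by ATAC-seq, in which a transposase cuts and tags open chromatin, so that more reads over a site mean a more open site. The cells were wild-type K562, an established line from a human leukaemia, given 25 nM PMA for 0, 6 or 72 h. PMA is an activator of protein kinase C that drives these cells towards a megakaryocyte-like state. Each time had 2 libraries, called replicates 1 and 2. Medium was changed after 24 and 48 h, and the 0 h group stands for cells without PMA exposure. Nothing in the labels says that the 2 libraries of a time came from separate cultures, so p-values measure the spread between these libraries only.

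INHBA encodes the inhibin beta A chain. A pair of these chains forms activin A, a ligand of the TGF-beta family that was also named erythroid differentiation factor. Activin binds type II and type I receptors, which phosphorylate SMAD2 and SMAD3, and these enter the nucleus with SMAD4; follistatins bind the ligand and block it, and furin-type proteases cut it from its precursor. SUGCT encodes a mitochondrial enzyme that joins coenzyme A to glutarate, an intermediate of lysine breakdown. INHBA-AS1 is a long non-coding RNA gene that overlaps INHBA, and further non-coding genes (LINC01450, LINC01449, LOC105375241) lie in the window.

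The annotated starts of the genes are shown first because one of them gained accessibility and the other lost it. The sequences below are the 250 bases before each start, from RefSeq (GRCh38.p14), with capitals for the motif letters found on either strand. INHBA is on the minus strand (chr7:41703091-41703340), INHBA-AS1 on the plus strand (chr7:41693669-41693918) and SUGCT on the plus strand (chr7:40134755-40135004).
INHBA: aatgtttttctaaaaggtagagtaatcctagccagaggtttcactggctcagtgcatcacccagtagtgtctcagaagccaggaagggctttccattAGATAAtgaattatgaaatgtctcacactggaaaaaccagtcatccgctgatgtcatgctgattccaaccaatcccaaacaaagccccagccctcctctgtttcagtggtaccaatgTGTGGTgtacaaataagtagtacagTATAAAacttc
INHBA-AS1: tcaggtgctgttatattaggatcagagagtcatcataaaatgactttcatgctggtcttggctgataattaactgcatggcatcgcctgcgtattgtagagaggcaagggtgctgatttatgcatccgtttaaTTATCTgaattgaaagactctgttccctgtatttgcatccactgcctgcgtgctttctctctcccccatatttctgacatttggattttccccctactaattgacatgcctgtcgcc
SUGCT: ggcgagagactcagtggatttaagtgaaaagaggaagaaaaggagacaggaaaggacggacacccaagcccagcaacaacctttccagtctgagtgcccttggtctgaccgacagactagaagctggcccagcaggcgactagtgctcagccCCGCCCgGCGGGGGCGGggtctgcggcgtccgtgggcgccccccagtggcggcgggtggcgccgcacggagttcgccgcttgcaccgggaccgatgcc

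In the INHBA sequence the capitals mark AGATAA (the GATA motif), TGTGGT (RUNX) and TATAAA (the TATA box), the last one 11 bases before the start. Of 35116 RefSeq promoter windows of the same length, 9.17% held the GATA letters, 11.0% the RUNX letters and 10.7% the TATA letters on either strand. The INHBA-AS1 sequence holds the GATA letters on its reverse strand. In the SUGCT sequence the capitals mark GGGCGG (SP/KLF), found on both strands and in 42.6% of windows, and GCGNGGGCG (EGR), found in 8.41%, which overlaps the forward SP/KLF match. The letters of AP-1, CRE, ETS, SMAD and NF-kB motifs were searched as well, and none was in these 3 windows. The SUGCT window is 65.6% G and C with 21 CpG pairs, and the INHBA window is 42.8% G and C with 1 CpG pair. A match is a description of letters and not a binding site.

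Each library held between 12258890 and 35548737 counts over all sites, the shallowest being replicate 1 at 6 h and the deepest replicate 2 at 72 h. Replicates of a time differed by more than counting noise. Of gene ends listed as markers, both 0 h libraries had a deposited peak at 7 of 7 erythroid genes and 3 of 7 genes of other cell types. Levels are given as counts in each library or as CPM, which are counts scaled to a common library size with TMM factors.

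In untreated cells the sites of the window held few counts. The highest count of any of its sites in a 0 h library was 62, and 63 of the 86 sites had fewer than 10 counts in both. The median site had 4 counts in each 0 h library, then 7 and 11.5 at 6 h, then 105 and 114 at 72 h. Summed over the 86 sites, accessibility was 31.1 ± 7.05 CPM at 0 h, then 139 ± 29.9 at 6 h, then 323 ± 9.65 at 72 h (mean ± SD, n = 2 at each time). No site of the window reached a mean of 5 CPM at 0 h, 6 did so at 6 h and 24 at 72 h. In such bulk libraries, more cells with a site open cannot be told apart from wider opening in each cell.

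**Figure D1:**
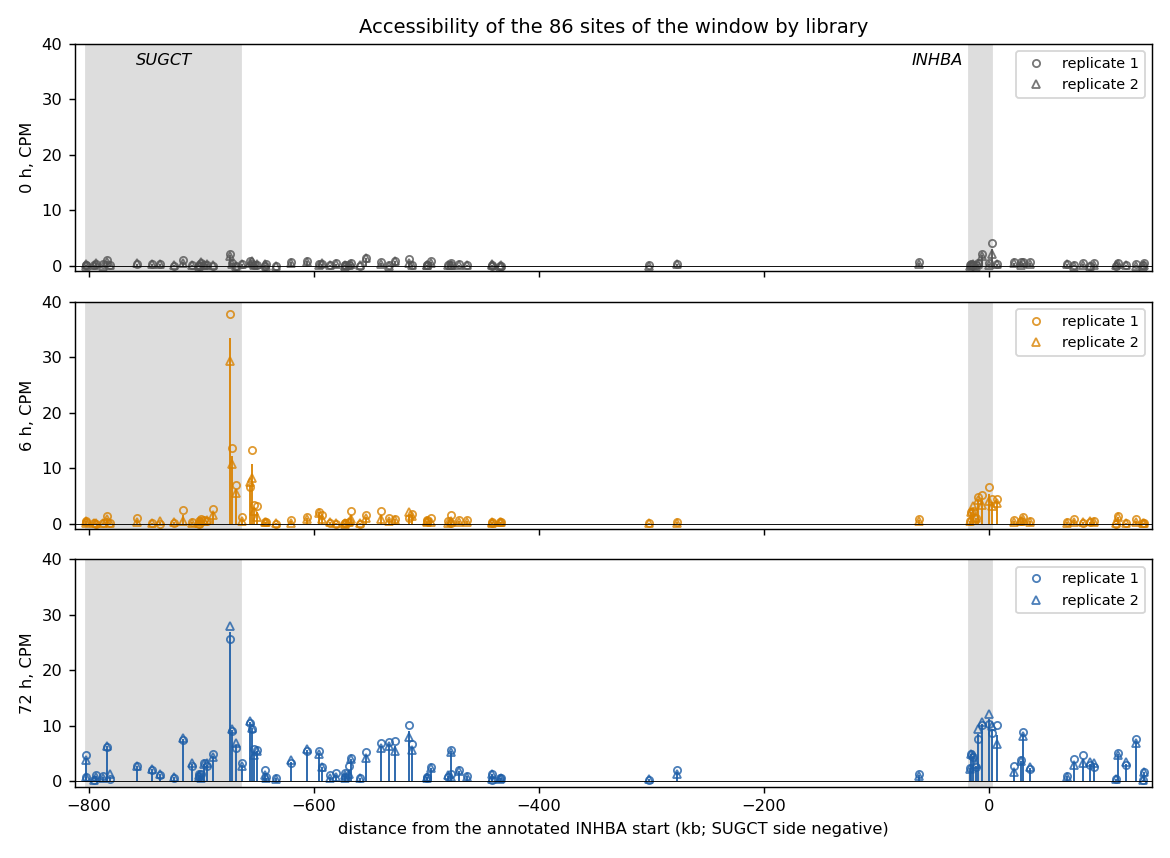
Accessibility of each of the 86 sites in CPM (vertical axis) against distance from the annotated INHBA start in kb (horizontal axis), 1 panel per time; circles and triangles are replicates 1 and 2, vertical lines their mean, and grey the SUGCT and INHBA intervals. At 6 h the tallest sites stand at the end of SUGCT, up to a mean of 33.5 CPM, and at 72 h sites rise along the whole window except its bare stretch.

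Of the 86 sites, 84 passed the filter on low counts and were fitted. Only 15 reached the filter's level in both 0 h libraries, and 43 reached it at 72 h alone, so a high share of differences among the fitted sites follows from how they entered the fit. The counts of calls against 0 h that follow are on the values that chose the window. At 6 h against 0 h, 29 of the 84 were called, beside 40.1% of all 177759 tested sites: 27 higher, beside 23.4%, and 2 lower, beside 16.8%. At 72 h against 0 h, 81 were called, beside 67.4%: all were higher, beside 38.2%, and 0 lower, beside 29.2%. Over the 3 times together 82 were called by the F test, beside 72.0%. Both 6 h libraries lay above both 0 h libraries at 41 of the 84, beside 36.0%, and both 72 h libraries at 83, beside 47.7%. Calls are those of edgeR's quasi-likelihood test at a Benjamini-Hochberg adjusted p under 0.05 over all sites. Over the fitted sites the median change in log2 was 0.99 by 6 h and 3.42 by 72 h, where the whole table gave 0.05 and 0.29.

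The comparison of 72 h with 6 h was not named in the choice of the window, although it uses the same treated libraries. Here 68 of 84 sites were called, beside 42.9% of all tested sites: all 68 were higher at 72 h, beside 22.1%, and 0 lower, beside 20.9%. The median log2 fold change was 2.18, against 0.03 over all tested sites. In 78 of the 84, both 72 h libraries lay above both 6 h libraries, beside 37.7% of all tested sites, and 36 of the 84 rose in both steps without overlap, beside 15.6%. At 2 sites both 72 h libraries lay under both 6 h libraries, as they did at 63386 of all 181135 sites. Entry at 72 h alone, as for 43 sites, favours a rise from 6 h by the filter itself, though not every such site was called. Of the other 41, which passed through 0 h or 6 h, 33 were called higher at 72 h and 0 lower, with a median of 1.52. By order of calls, 44 sites were first called higher at 72 h and above 6 h, and 22 were higher at 6 h and higher again at 72 h. A further 5 were higher at both times with no call between them, 9 were higher at 72 h with no call against 6 h, 2 were lower at 6 h, and 2 had no call.

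The window was divided into 4 areas. Inside SUGCT (22 sites) the summed level was 7.62 ± 0.63 CPM in untreated cells, then 61.1 ± 12.2 at 6 h, then 87.8 ± 2.06 at 72 h (n = 2 each). Between SUGCT and INHBA (40 sites) it was 12.6 ± 1.89, 44.1 ± 11.7 and 124 ± 10.9 CPM. Over INHBA with 10 kb on both sides (9 sites) it was 6.62 ± 2.40, 28.3 ± 4.18 and 62.5 ± 1.98 CPM. Beyond INHBA (15 sites) the 0 h and 6 h levels, 4.28 ± 2.13 and 5.89 ± 1.80 CPM, overlapped between libraries, and the 72 h level was 48.9 ± 2.75. Sites called higher at 72 h than at 6 h numbered 16 of 21 fitted inside SUGCT, 30 of 40 between the genes, 8 of 9 at INHBA and 14 of 14 beyond it. These counts include sites that passed the filter at 72 h alone, a way of entry that favours a rise. Of those that passed through 0 h or 6 h, the counts were 5 of 9, 17 of 20, 8 of 9 and 3 of 3. The share over all tested sites was 22.1%, whichever time they passed through, so it is not the share of a like set. The areas were not tested against each other.

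**Figure D2:**
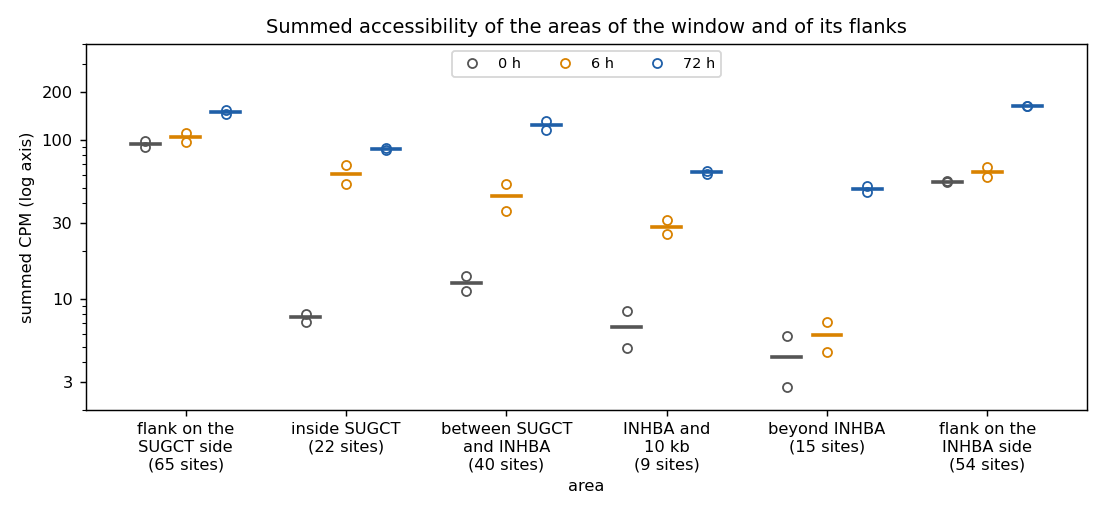
Summed CPM (log axis) of the sites in each area of the window and in the flanks of equal length on both sides, by library; points are the 2 libraries of a time and bars their mean. The 15 sites beyond INHBA overlap between 0 and 6 h and stand apart at 72 h, whereas the other 3 areas are already apart at 6 h.

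The flanks of 950000 bases on both sides give a scale for these values. The flank on the SUGCT side (65 sites) summed to 94.1, 104 and 150 CPM over the 3 times, and the flank on the INHBA side (54 sites) to 54.6, 63.0 and 164 CPM. Of their fitted sites, 9 of 63 and 7 of 52 were called higher at 6 h, and 46 of 63 and 39 of 52 at 72 h. From 6 h to 72 h, 36 of 63 and 35 of 52 were called higher, and 4 and 2 lower. Their median log2 fold changes were 1.46 and 2.06, where the window had 68 of 84 higher and a median of 2.18. Sites higher at 72 h, against 0 h or 6 h, were thus common on both sides of the window. No test of the window against its flanks was made. At the SUGCT-side edge, the last site outside (peak153240) had counts of 6 and 8, 2 and 4, and 82 and 87 in the order of time, and the first inside (peak153241) had 1 and 1, 3 and 1, and 32 and 34. At the other edge the last site inside (peak153326) had 8 and 3, 1 and 3, and 65 and 71, and the first outside (peak153327) 8 and 0, 2 and 10, and 80 and 78.

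SUGCT spans 40135005 to 41038816, and its last stretch held the site with the highest level of the window at both treated times. This was peak153260 (41028563-41029652), inside the SUGCT interval near the gene's end. Its counts were 34 and 38 at 0 h, then 443 and 925 at 6 h, then 993 and 1190 at 72 h, which is 2.01, 33.5 and 26.9 CPM on average. Both 6 h libraries and both 72 h libraries were far above the 0 h ones, by 4.06 in log2 for 6 h and 3.75 for 72 h. Both 72 h libraries, at 25.7 and 28.1 CPM, lay under both 6 h libraries, at 37.8 and 29.3. Between 72 h and 6 h the change was −0.31 (95% interval −0.66 to 0.05, adjusted p = 0.15 by edgeR). The sign of this change depended on the scaling, from −0.34 with RLE to 0.38 with loess offsets, with no call under any. Its neighbour peak153261 (41030576-41031167) had 9 and 6 counts, 160 and 337, and 350 and 397. Its 72 h libraries, at 9.06 and 9.37 CPM, also lay under both 6 h libraries, at 13.6 and 10.7. The 72 h against 6 h change at peak153261 was −0.38 (−0.85 to 0.08, adjusted p = 0.174 by edgeR), and 0.29 with factors from sites with a peak in all 6 libraries.

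The site that led to the choice of the window, peak153262 (41033536-41034044), had no counts in either 0 h library, then 82 and 174 at 6 h, then 231 and 294 at 72 h. With a floor of 3 counts for the 0 h group, the 6 h level was at least 71.5-fold higher and the 72 h level at least 78.4-fold. Its fitted log2 fold changes ranked 1 of 177759 at both times, but a fitted value against no counts depends on the prior count and is no bound. Between the treated times it moved by 0.07 (−0.45 to 0.59, adjusted p = 0.846). Under TMM factors from sites with a peak in all 6 libraries this change became 0.74 (adjusted p = 0.0176). A deposited peak overlapped it in replicate 2 at 72 h and in no other library, although 85.6% and 92.0% of sites of like CPM in the 6 h libraries, and 98.8% in replicate 1 at 72 h, overlapped one (a level between 0.8 times its own and its own divided by 0.8).

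A group of 9 sites from peak153259 to peak153267 (41013181-41053250), which crosses the end of SUGCT, was set apart after its values were seen and has no test of its own. Together these sites held 12.6% and 15.9% of the window's counts in the 0 h libraries, then 55.0% and 56.4% at 6 h, then 24.4% and 26.0% at 72 h. Their summed level was 4.35 ± 0.28 CPM before treatment, 77.5 ± 15.3 by 6 h and 81.2 ± 1.11 by 72 h. The gap between the treated times was smaller than the SD at 6 h. Within this sum, peak153260 alone held 33.5 CPM at 6 h and 26.9 at 72 h. Site by site, 5 of the 9 gained between the treated times by edgeR's test, with a median log2 change of 0.60 over the 9. Besides peak153264, these were peak153259 (1.22), peak153263 (2.09), peak153266 (0.97) and peak153267 (1.52). The calls at peak153259 and peak153266 were each lost under at least 1 alternative. Past the gene end, peak153264 (41046082-41046879) had 12 and 10, 77 and 236, and 409 and 458 counts, and peak153265 (41047748-41048410) 6 and 17, 155 and 261, and 365 and 409. The first was called higher at 72 h than at 6 h (0.60, SE 0.23, adjusted p = 0.038), a call lost without any 1 of the 4 treated libraries (adjusted p of 0.0618 to 0.155), under RLE scaling (0.0540) and in DESeq2 (0.114). The second was not called (−0.14, −0.65 to 0.37), with a sign that again depended on the scaling (−0.17 to 0.53). In this group peak153263, within 1000 bases past the SUGCT end, was the 1 site not called at 6 h, with 4 and 6, 13 and 15, and 126 and 114 counts.

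**Figure D3:**
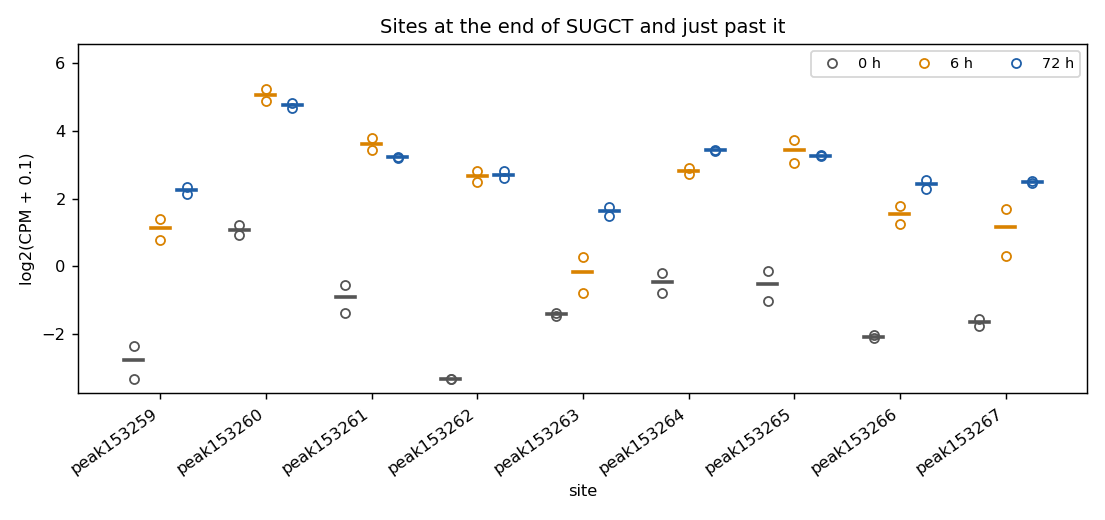
Accessibility of the 9 sites at the end of SUGCT as log2 of CPM plus 0.1 (vertical axis), by site from the SUGCT interior outwards; open points are libraries and bars the mean of each time. At peak153260, peak153261, peak153262 and peak153265 the 6 h and 72 h libraries lie at like heights, and at peak153263 the 6 h libraries stay well under those of 72 h.

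The annotated start of SUGCT, outside the window, went the opposite way. The site at its annotated start, peak153180 (40134099-40135298), which covers the printed SUGCT sequence, had counts of 463 and 702 at 0 h, then 310 and 717 at 6 h, then 457 and 422 at 72 h. On the CPM scale that was 31.8 ± 2.45, 24.6 ± 2.65 and 10.9 ± 1.32 (n = 2 each). The fall at 72 h against 0 h was −1.55 in log2 (SE 0.17, adjusted p = 8.83e-08 by edgeR), and at 6 h the change of −0.38 was not called (adjusted p = 0.0767), although it was under RLE scaling (−0.53, 0.0161), in DESeq2 (0.0255), with a replicate block (0.0349) and without replicate 1 at 0 h (0.0361). The fall at 72 h kept its sign and its call under every scaling run, from −1.73 with RLE to −0.58 with factors from sites with a peak in all 6 libraries. This site was picked out after its values were seen. Of the 58 fitted sites of SUGCT that lie before the window, 45 were called higher at 72 h and 1 lower.

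INHBA spans 41685114 to 41705406, and all 9 sites in it or within 10 kb were higher at 72 h. The site at its annotated start is peak153309 (41702831-41703463), which covers all 250 bases of the INHBA sequence printed above. Its counts were 7 and 2 at 0 h, then 78 and 127 at 6 h, then 401 and 517 at 72 h, or 0.28, 5.33 and 11.3 CPM on average. The 3 times did not overlap, and the gain over 0 h was 4.33 in log2 by 6 h and 5.47 by 72 h. From 6 h to 72 h it rose by 1.13 (SE 0.28, adjusted p = 0.00238 by edgeR), a call lost without replicate 2 at 6 h (0.81, adjusted p = 0.0631). Deposited peaks overlapped it in all 4 treated libraries and in none at 0 h.

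The annotated start lies 2316 bases inside the INHBA interval, whose outer end is covered by another site, peak153310 (41704966-41705636). This was the most open site of the window in untreated cells, with 62 and 44 counts at 0 h, then 52 and 101 at 6 h, then 338 and 423 at 72 h. It was also the only member with a deposited peak at 0 h, in replicate 1. Its 6 h libraries, at 4.43 and 3.20 CPM, overlapped the 0 h ones, at 4.03 and 2.10, and it came up afterwards (72 h against 6 h, 1.34, SE 0.28, adjusted p = 0.000574). In the body of the gene, peak153308 (41696096-41696868) likewise held more 0 h counts than most members, but overlapped no deposited peak at 0 h. It had 34 and 37, 61 and 108, and 394 and 450 counts, and rose by 1.32 from 6 h to 72 h (adjusted p = 0.000253). At 72 h these 3 sites stood at like levels, 11.3, 9.37 and 10.4 CPM, from starts of 0.28, 3.07 and 1.99.

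Around the start of INHBA-AS1, peak153307 (41693098-41693811) overlapped 143 of the 250 printed bases. It had 8 and 6 counts at 0 h, then 56 and 134 at 6 h, then 293 and 398 at 72 h, and rose by 0.93 between the treated times (SE 0.25, adjusted p = 0.00542). Upstream of INHBA and inside INHBA-AS1, peak153311 (41709465-41710137) had 6 and 6, 51 and 117, and 390 and 283 counts, with a rise of 1.08 (adjusted p = 0.00263). At the other end of INHBA, peak153303, peak153304, peak153305 and peak153306 had at most 5 counts in any 0 h library and between 91 and 211 in the 72 h libraries. Of these 4, peak153305 was not called between the treated times (0.68, adjusted p = 0.0665), and peak153306 lost that call without replicate 2 at 72 h (adjusted p = 0.0723). Strand and exons are not given by the gene table used here, so it is not said which of these sites are exonic or intronic.

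**Figure D4:**
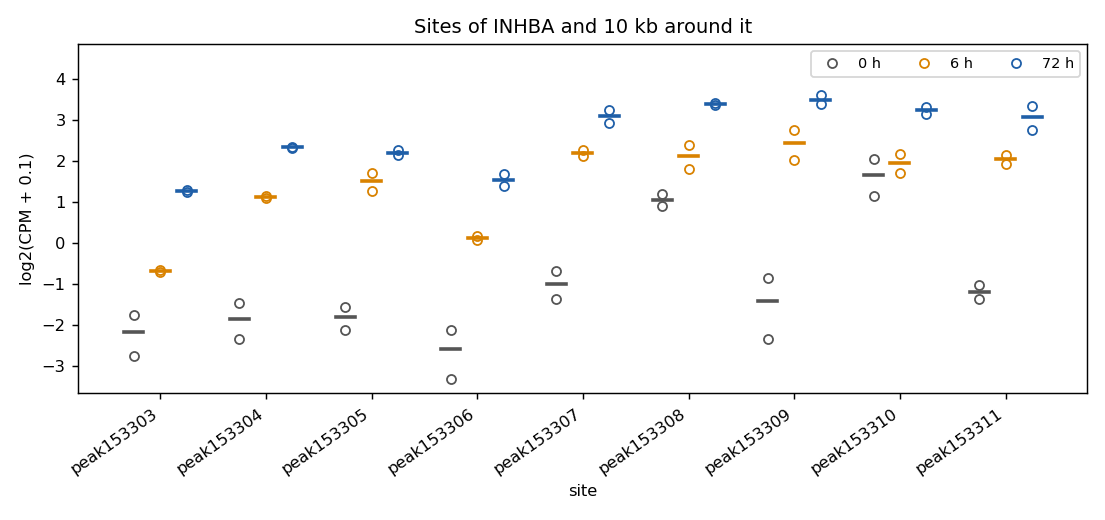
Accessibility of the 9 sites of INHBA and 10 kb around it as log2 of CPM plus 0.1 (vertical axis), in genome order; open points are libraries and bars the mean of each time. Every site has both 72 h libraries above both 6 h libraries, and peak153308 and peak153310 are the only sites of the set above 1 CPM at 0 h.

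Between the genes the sites were divided by bare stretches. No site was listed over 131255 bases between peak153299 and peak153300, nor over 213998 bases between peak153301 and peak153302. On the SUGCT side of these stretches, peak153284 (41169207-41169921) had 2 and 0 counts at 0 h, then 12 and 17 at 6 h, then 272 and 266 at 72 h. The ratio of 72 h to 0 h over the summed counts was 121 (95% counting interval 33.2 to 998), and the 6 h to 72 h change was 3.24 (SE 0.38, adjusted p = 1.61e-06). At peak153287 (41189722-41190336) counts were 2 and 2, 21 and 43, and 259 and 242, a ratio of 56.1 (21.8 to 207) at 72 h. The start of LOC105375241, a non-coding gene, lies under peak153282 (41149453-41150149), which had 23 and 29 counts at 0 h, then 17 and 31 at 6 h, then 205 and 176 at 72 h.

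Some sites dipped at 6 h and rose again by 72 h, all at low counts. In SUGCT, peak153244 (40909327-40909721) had 6 and 10 counts at 0 h, then 0 and 1 at 6 h, then 41 and 33 at 72 h. In LINC01449 and LOC105375241, peak153276 (41122653-41123128) had 8 and 5, 0 and 2, and 55 and 30. At 72 h against 0 h, peak153244 was not called (1.06, −0.06 to 2.18, adjusted p = 0.0867 by edgeR). It was called under total counts (1.56) and under factors from sites with a peak in all 6 libraries (2.02). The same call at peak153276 was lost under loess offsets (1.15), in DESeq2 (1.33) and without replicate 2 at 0 h or replicate 1 at 72 h. At 6 h these 2 members were the only ones called lower. The second of these calls was lost without replicate 1 at 0 h (log2 fold change −2.35), without replicate 1 or 2 at 6 h (−2.44 and −6.26), in DESeq2 (−3.24) and under factors from sites with a peak in all 6 libraries (−2.58). Both sites were picked for their low 6 h counts and passed the filter at 72 h alone. A large rise from 6 h therefore followed from that choice. From 6 h to 72 h they rose to 39.6 and 22.7 times the 6 h level, with counting intervals of 6.89 to 1584 and 6.10 to 191.

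Beyond INHBA 14 sites were fitted, of which 3 passed the filter through 0 h or 6 h and the others at 72 h alone. All 14 were above their 6 h level by the test at 72 h, the 3 included, and 3 were called higher by 6 h. Large changes were seen at peak153324 (41832762-41833503), with 4 and 1 counts at 0 h, then 10 and 7 at 6 h, then 293 and 293 at 72 h, and peak153323 (41824476-41825047), with 3 and 2, 2 and 2, and 111 and 144. Both passed the filter at 72 h alone, so a rise was favoured by how they entered the fit, and their p-values add no support. Their changes from 6 h to 72 h were 4.10 (SE 0.44, adjusted p = 6.31e-07 by edgeR) and 4.99 (SE 0.57, adjusted p = 1.2e-06). One of those called at 6 h was peak153319 (41791980-41792589), with no 0 h count in either library and 3 and 12 at 6 h. It reached 113 and 146 at 72 h, at least 38.7-fold above a floor of 3 counts at 0 h. Sites of INHBA-AS1 past the INHBA interval took part as well: peak153314 (41732703-41733473) had 11 and 9, 13 and 27, and 343 and 345 counts.

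**Figure D5:**
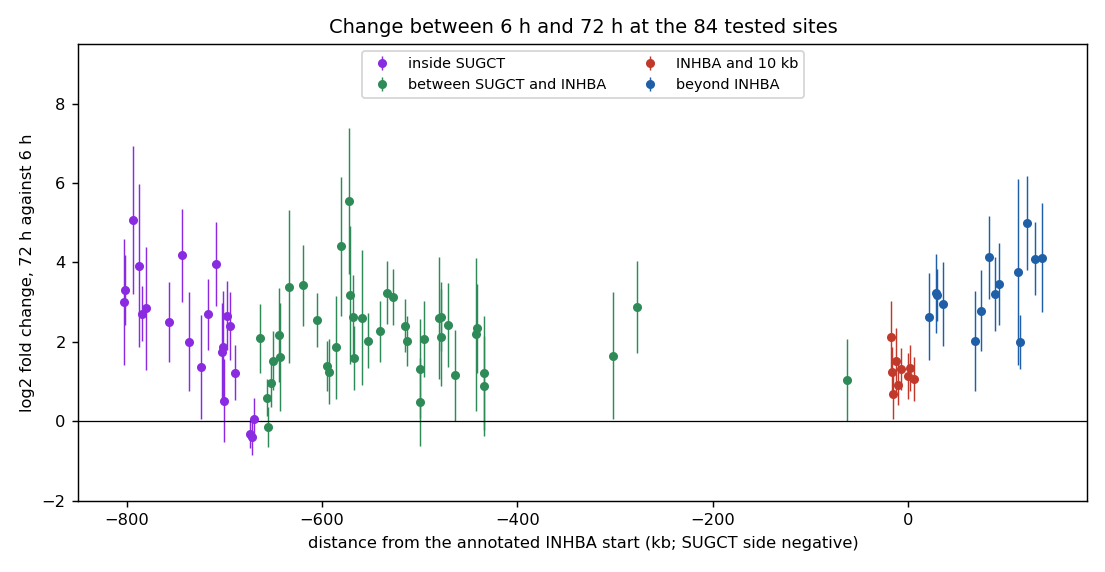
Log2 fold change of 72 h against 6 h (vertical axis) with its 95% interval for the 84 fitted sites, against distance from the annotated INHBA start in kb (horizontal axis), coloured by area. At the end of SUGCT peak153260, peak153261, peak153262 and peak153265 sit around 0, those of INHBA between 0.68 and 2.12, and those beyond INHBA mostly above these, up to 4.99.

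Deposited peaks, called in each library, followed the counts. Of the 86 members, 1 and 0 overlapped a peak in the 0 h libraries, 5 and 10 in the 6 h libraries, and 62 and 64 in the 72 h libraries. Among all 181135 sites, 57420 and 64747 overlapped one in the untreated libraries. The 6 h libraries gave 59403 and 86692 such sites, and those of 72 h gave 128097 and 131534. The window was thus poor in peaks in untreated and 6 h cells, while its 72 h share was near that of the table. A peak was present in both 6 h libraries at 4 members and in both 72 h libraries at 54, and 14 members overlapped no peak in any library. The lower number in replicate 1 at 6 h goes with its depth, 12258890 counts against 33634403 in replicate 2; the part of depth in it was not tested.

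The other genes of the activin pathway had sites that moved in both directions. Within 10 kb of 20 such genes without INHBA, 198 sites were fitted. At 6 h 53 were called higher and 31 lower, which is 26.8% and 15.7%, near the 23.4% and 16.8% of all tested sites. At 72 h 60 were higher and 64 lower, or 30.3% and 32.3%, beside 38.2% and 29.2%. From 6 h to 72 h 16 were called higher and 68 lower, or 8.08% and 34.3%, beside 22.1% and 20.9%, and INHBA had 8 of 9 higher and 0 lower. The median log2 fold changes of the list were 0.10 at 6 h, −0.10 at 72 h and −0.41 between the treated times, beside 0.05, 0.29 and 0.03 over all tested sites. A site in reach of a gene is not shown to act on it, and falls depend on the scaling: of both lists together, 85 sites were lower at 72 h under TMM and 42 under factors from sites with a peak in all 6 libraries. Between the treated times the same factors turned 81 higher and 82 lower into 137 and 17. At the sites of largest change named for each gene, the call at 72 h against 0 h was lost under at least 1 alternative for INHBB, ACVR1C, ACVR2A, ACVR2B, SMAD2, SMAD4, FSTL1, FURIN and AASS.

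Among the ligand genes, lower sites outnumbered higher ones at INHA, INHBC and INHBE by 72 h. Over all tested sites, 38.2% were called higher and 29.2% lower at 72 h. INHBA's partner chain in inhibin, INHA, had 0 of 4 sites higher and 2 lower at 72 h. Its site of largest change, peak99072, went from 4.03 and 3.92 CPM in untreated cells to 0.77 and 1.20 by 6 h, and 0.39 and 0.42 by 72 h (72 h against 0 h, −3.27, SE 0.38, adjusted p = 2.05e-07). INHBC had 1 of 6 sites higher and 5 lower at 72 h, and INHBE 1 of 5 higher and 4 lower. These genes are neighbours on chromosome 12 and their reaches of 10 kb overlap, so shared sites are counted for both. INHBB had 1 of 3 sites higher at 72 h and none lower, with 1.64 at peak94134 (adjusted p = 0.0433). That call was lost under RLE (0.0704), loess (0.121), in DESeq2 (0.199) and without replicate 2 at 0 h (0.45) or replicate 1 or 2 at 72 h (0.111 and 0.132).

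Of the receptor genes, ACVR1, a type I receptor, gained early. At 6 h 15 of its 24 sites were called higher and 1 lower, beside 23.4% and 16.8% of all tested sites. From 6 h to 72 h 12 were called lower and 0 higher, beside 20.9% and 22.1%. Its site peak95730 had 4.22 and 2.77 CPM at 0 h, then 33.7 and 31.9 at 6 h, then 12.1 and 9.39 at 72 h, a log2 fold change of 3.25 at 6 h (SE 0.23, adjusted p = 5.96e-10). ACVR1B, the type I receptor used by activin, had 2 of 10 sites higher at 6 h and 4 at 72 h, led by peak41146 at 4.43. Over all tested sites 38.2% were called higher and 29.2% lower at 72 h, so the ACVR1B count was near that share. The type II receptor genes ACVR2A, with 1 site, and ACVR2B, with 6, had 0 sites higher and 1 and 2 lower at 72 h. The ACVR2A call at peak95278 was lost under factors from sites with a peak in all 6 libraries (−0.31, adjusted p = 0.119), and the ACVR2B call at peak114604 under loess offsets (−0.19, 0.214). ACVR1C, another type I receptor, had 0 of 5 higher and 1 lower. TGFBR3, a co-receptor that binds inhibin, was mixed, with 7 of 26 higher and 11 lower.

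SMAD3, a carrier of the activin signal, had 13 of 29 sites higher and 3 lower at 6 h, and 12 higher and 7 lower at 72 h, with 4.18 at 6 h at peak58512 (adjusted p = 5.70e-05). SMAD2 had 1 of 7 higher and 4 lower at 72 h, and SMAD4 2 of 9 higher and 1 lower. The inhibitory SMAD6 had 8 of 21 sites higher and 4 lower at 72 h, and SMAD7 5 of 16 higher and 8 lower. SMAD6 peak58423 rose from 2.14 and 2.15 CPM to 8.27 and 14.3 at 6 h. Over all tested sites, 23.4% were called higher and 16.8% lower at 6 h, and 38.2% and 29.2% at 72 h. Between the treated times 22.1% were higher and 20.9% lower. The shares higher at 72 h at SMAD3 and SMAD6 were near that of all tested sites. Among antagonists, both sites of FSTL3 fell, with peak79976 at 5.85 and 5.55 CPM at 0 h and 0.80 and 0.42 at 72 h (−3.21, adjusted p = 1.02e-07). FST had 1 of 8 sites higher and 1 lower at 72 h, FSTL1 2 of 5 higher and 0 lower, and BAMBI, a decoy receptor, 1 of 4 higher and 2 lower. FURIN, the protease gene, had 5 of 11 sites higher at 6 h and 0 lower, and from 6 h to 72 h 8 lower and 0 higher. The symbol TDGF1 was not found among the RefSeq genes used here, so sites near that gene were not searched.

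The other genes of lysine and glutarate breakdown had more lower than higher sites at 72 h. Of 38 fitted sites at 6 other genes, 8 were called higher and 19 lower at 72 h, beside 38.2% and 29.2% of all tested sites. GCDH, which encodes glutaryl-CoA dehydrogenase, had 4 of 4 sites lower at 72 h, and its site peak81634 went from 67.6 ± 6.13 CPM at 0 h to 17.5 ± 0.66 at 72 h (n = 2 each, −1.95, SE 0.15, adjusted p = 1.23e-09). ECHS1, an enoyl-CoA hydratase, had 4 of 6 lower, ETFDH, of the electron transfer chain, 2 of 2 lower, and AASS, which starts lysine breakdown, 1 of 1 lower. The AASS call, at peak157763, was lost under total counts (adjusted p = 0.0886), under factors from sites with a peak in all 6 libraries (0.402), without replicate 1 at 0 h (log2 fold change −0.85 in place of −1.42) and without replicate 2 at 72 h (−1.23). Higher sites were found at DHTKD1, with 2 of 8 higher and 4 lower, and HADH, with 6 of 17 higher and 4 lower, led by peak21292 (3.59) and peak127376 (3.44). AADAT had no site in reach.

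The genes whose summed profile was most like that of INHBA were found among 18320 protein-coding genes by the root mean square difference of log2 CPM, centred over the 6 libraries. They were ATP13A5 (0.15), SPATA18 (0.15), DMRT1 (0.15), SCGB2A2 (0.17) and DEFB105B (0.20). INHBA itself summed to 8.32 and 4.92 CPM at 0 h, then 31.3 and 25.4 at 6 h, then 61.1 and 64.0 at 72 h. SPATA18, with 3 sites, had 1.23 and 0.76, 6.22 and 4.21, and 8.88 and 9.86 CPM. These likenesses rest on 6 libraries in 3 groups, and DEFB105B has near-identical copies, so its reads are uncertain.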

How the data were processed

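Per the submitters' processing notes, Trim Galore 0.4.3, BWA 0.7.17, SAMtools 1.9, deepTools 3.0.1, MACS2, bedtools 2.26, DESeq and build hg38 were used, with no role given; how sites were merged and whether read ends were shifted are not given in the sources used here. The authors deposited read counts per site and library as whole numbers, with their own log2 fold changes, an adjusted p-value and a class name per site. They also deposited a peak list per library, with a score, a fold enrichment (signal value) and −log10 p and q. Peaks were used only for overlap with a site, by at least 1 base.

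Counts were fitted here with edgeR 4.0.16 (TMM, filterByExpr with a minimum count of 10, glmQLFit on all 6 libraries) and adjusted over the 177759 sites left. Alternatives were other scalings, no filter, DESeq2 1.42.0, a replicate block, each library left out, only the groups compared, a stricter threshold and a reach of 50000 bases. The fit was tested on simulated counts. Ratios of summed counts carry 95% exact counting intervals, which cover counting error only. Genes and sequences came from RefSeq tables of GRCh38.p14. Named were window sites of highest level or largest called change, sites at gene ends, list genes with a called site, and the 5 genes most like INHBA; sites or genes named outside these were picked after their values were seen. The window, its members and the gene lists were chosen with earlier results of these data known. One list of marker genes is not reported here.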

Additional observations from a re-analysis of the deposited data

How the results depend on the processing

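No count of window sites changed direction under any alternative run. Over all of them, 21 to 33 window sites were called at 6 h against 0 h, 69 to 84 at 72 h against 0 h and 52 to 79 at 72 h against 6 h, with none lower at 72 h. The 2 sites lower at 6 h became 1 under factors from sites with a peak in all 6 libraries, in DESeq2 and at an adjusted p under 0.01 with an absolute log2 fold change above 1, 0 with only the groups compared, and 1 to 3 with a library left out. Scaling moved the median of the whole table at 72 h against 0 h, in log2, from 0.29 to 0.11 (RLE), 0.79 (total counts), −0.04 (loess) and 1.26 (factors from sites with a peak in all 6 libraries). For both gene lists together, with INHBA and SUGCT, a reach of 50000 bases raised the counts at 6 h against 0 h from 132 (87 higher, 45 lower) to 245 (147 and 98), at 72 h against 0 h from 229 (144 and 85) to 407 (230 and 177), and at 72 h against 6 h from 163 (81 and 82) to 278 (127 and 151). Factors from shared peaks gave 28 lower at 6 h, 42 lower at 72 h, and 137 higher and 17 lower at 72 h against 6 h. The stricter threshold gave 23 lower at 6 h, and 85 called with 29 lower at 72 h against 6 h. For the last comparison DESeq2 gave 53 higher, total counts 40 lower, and libraries left out 98 to 180 called and 44 to 92 lower. At GCDH, peak81634 turned from −0.59 at 72 h against 6 h to 0.30 under loess offsets and 0.078 under factors from shared peaks; the cause was not tested. Same-numbered libraries share only a number (correlations of deviations 0.16, 0.09 and 0.14); a replicate block gave 30, 81 and 69 window sites for the comparisons in the order above. Low counts limit the 0 h values most, since 63 of 86 members had under 10 counts in both 0 h libraries.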

Other observations

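The authors' deposited table gives each site a class name, which did not always follow its own fold changes. All 86 members had a log2 fold change above 0 at 72 h in the authors' deposited table, yet their classes there were static for 29, upEarly for 8, upLate for 29, downEarly for 18 and downLate for 2. The site of highest level, peak153260, is listed in the authors' deposited table with 3.88 at 6 h and 3.54 at 72 h and the class downEarly, while its neighbour peak153261, with 4.61 and 4.20, is listed as upEarly. Of all 23760 sites with a value above 1 at both times in the authors' deposited table, 4820 (20.3%) carry a class named down and 6924 the class static. How the classes were made was not analysed here.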
